A study of Macaca mulatta with 9 samples.

Results

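The genes described are the DNA replication and repair families on a rhesus macaque array: every probe set whose only annotated gene symbol begins as a member of the MCM, ORC, RFC, GINS, POLA, POLD, POLE, PRIM, RPA, FANC, RAD5, XRCC or MSH families does. The families were chosen by name, with earlier results of these data known, and they gave 87 of 52865 probe sets, standing for 53 genes. Expression had been measured in SAFs, small antral follicles of the ovary whose fluid-filled cavity is already present, taken early in the follicular phase of young adult females. There were 3 groups of 3 arrays, each array from 1 ovary with its SAFs pooled (3.7 ± 0.3 per ovary, kind of error not stated): females on a Western-style diet with chronic androgen treatment (WSD+T), females on the Western-style diet (WSD), and females on a standard diet (control). Follicles had been picked for a healthy look, and granulosa cells, follicle wall and cumulus-oocyte complex were lysed together, so fewer cells of a type and less RNA per cell cannot be told apart in any value below.

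DNA is copied once per cell cycle. The origin recognition complex (ORC) marks start sites and loads rings of MCM proteins, which become the replicative helicase when CDC45 and the GINS complex join them, and polymerases alpha, delta and epsilon then copy the strands. Transcripts of many of these genes are made mainly in cells that enter S phase, under E2F transcription factors. In antral follicles the dividing cells are chiefly granulosa cells. Roles given below are those known for the human and mouse genes.

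A gene was tested if a probe set of it averaged, over the 9 arrays, no less than the median non-control probe set (a signal of about 21.2), and it was represented by its probe set with the highest mean. Of the 53 genes, 46 were tested, with 66 of the 87 probe sets. The other 7 genes lay low on all arrays. They were the clamp loader subunit RFC3, the mismatch repair relatives MSH4 and MSH5, which act in meiosis, RPA4, RAD54L2, MCM3AP and FANCD2OS. Their signals ran from 0.121 (MSH4) to 24.0 (RAD54L2), and MCM3AP, RAD54L2 and FANCD2OS carry a family prefix without being subunits of the family's complex. Values are linear MAS5 signals, fold changes are differences in log2(signal + 16), which understate the change of dim genes, and adjusted p values are from 1 limma fit of all 9 arrays over 26383 probe sets.

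The arrays differed in more than these genes. Median signals ran from 21.6 to 23.5 in WSD+T, from 15.9 to 21.4 in WSD and from 20.6 to 23.7 in control, with 1 common trimmed mean set by the authors. The within-group variance averaged 0.0411 in WSD+T, 0.330 in WSD and 0.152 in control on the log2 scale. WSD+T replicates 1 and 3 were the closest pair of arrays, with an SD of their log2 differences of 0.211, against 0.317 to 1.03 for the other pairs within a group. Of 7 granulosa markers 4 were tested (AMH, INHA, CYP19A1 and NR5A1), and their summed signal was 426 to 604 in WSD+T, 538 to 1095 in WSD and 1553 to 3444 in control. The 6 tested of 9 myeloid markers summed to 11540.0 to 12670.0 in WSD+T, 12020.0, 17320.0 and 758.5 in WSD replicates 1 to 3, and 1440.0 to 7310.0 in control. For 5 of 8 oocyte markers the sums were 870 to 1055 in WSD+T, 248 to 720.4 in WSD and 276 to 560 in control, and for 5 of 6 endothelial markers 1792 to 2056 in WSD+T, 448 to 3513 in WSD and 944.5 to 1505 in control. The 2 tested theca markers CYP17A1 and STAR summed to 2601 to 2848 in WSD+T, 2584 to 4378 in WSD and 2466 to 3696 in control. STAR made up most of that sum, and CYP17A1 alone lay below control without overlap in both groups on the diet. CYP17A1 had fold changes of -0.91 in WSD+T (adjusted p = 0.116) and -1.67 in WSD (adjusted p = 0.00715). STAR had -0.05 in WSD+T and 0.34 in WSD and passed in neither. The 3 tested smooth muscle and stroma markers summed to 5929 to 7000.0 in WSD+T, 4073 to 5327 in WSD and 4120.0 to 4690.0 in control. The T and NK cell markers GZMA and GZMB summed to 3184 to 3495 in WSD+T, 2378 to 3086 in WSD and 2510.0 to 2895 in control. The markers KDR, ITGAM and NKG7 lay below the filter on average, with no group mean signal above 26.3. The granulosa sum was thus lower on every WSD and WSD+T array than on every control array, as were most replication genes below. INHA made up most of that sum in control and was the only 1 of the 4 called (-2.41 in WSD+T and -2.09 in WSD). In WSD AMH (-0.97) lay below control, while CYP19A1 (-0.48) and NR5A1 (-0.53) overlapped it. In WSD+T each of the 4 lay below control. The part of the granulosa sum in those results was not tested. The myeloid sum lay above every control array on all 3 WSD+T arrays and on WSD replicates 1 and 2, and below every control array on WSD replicate 3, where the mean centred level of the 46 genes was -0.25, against -0.27 and -0.38 on WSD replicates 1 and 2. Its part in the results was not tested either.

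Replication and repair genes were lower after the Western-style diet than on the standard diet. Of the 46 tested genes 25 fell in WSD, none rose and 21 did not pass, where 10.7% of all 10002 tested genes were called lower and 4.74% higher. The median fold change of the 46 was -0.70, against -0.08 over all tested genes. In WSD+T 12 of the 46 fell, none rose and 34 did not pass, where 1.73% of all tested genes were called lower and 0.62% higher, and the median was -0.51 against -0.01. No gene rose in either comparison at an unadjusted p under 0.05 (a count of 0 in limma). Both comparisons share the control arrays. The signals of all 3 WSD arrays lay below all 3 control arrays for 33 of the 46 genes, as they did for 22.0% of all tested genes, and those of WSD+T did for 35, as they did for 19.8%. The reverse held for 1 gene each: XRCC5 in WSD, where 10.3% of all tested genes lay wholly above control, and POLD4 in WSD+T, where 20.5% did.

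**Figure D1:**
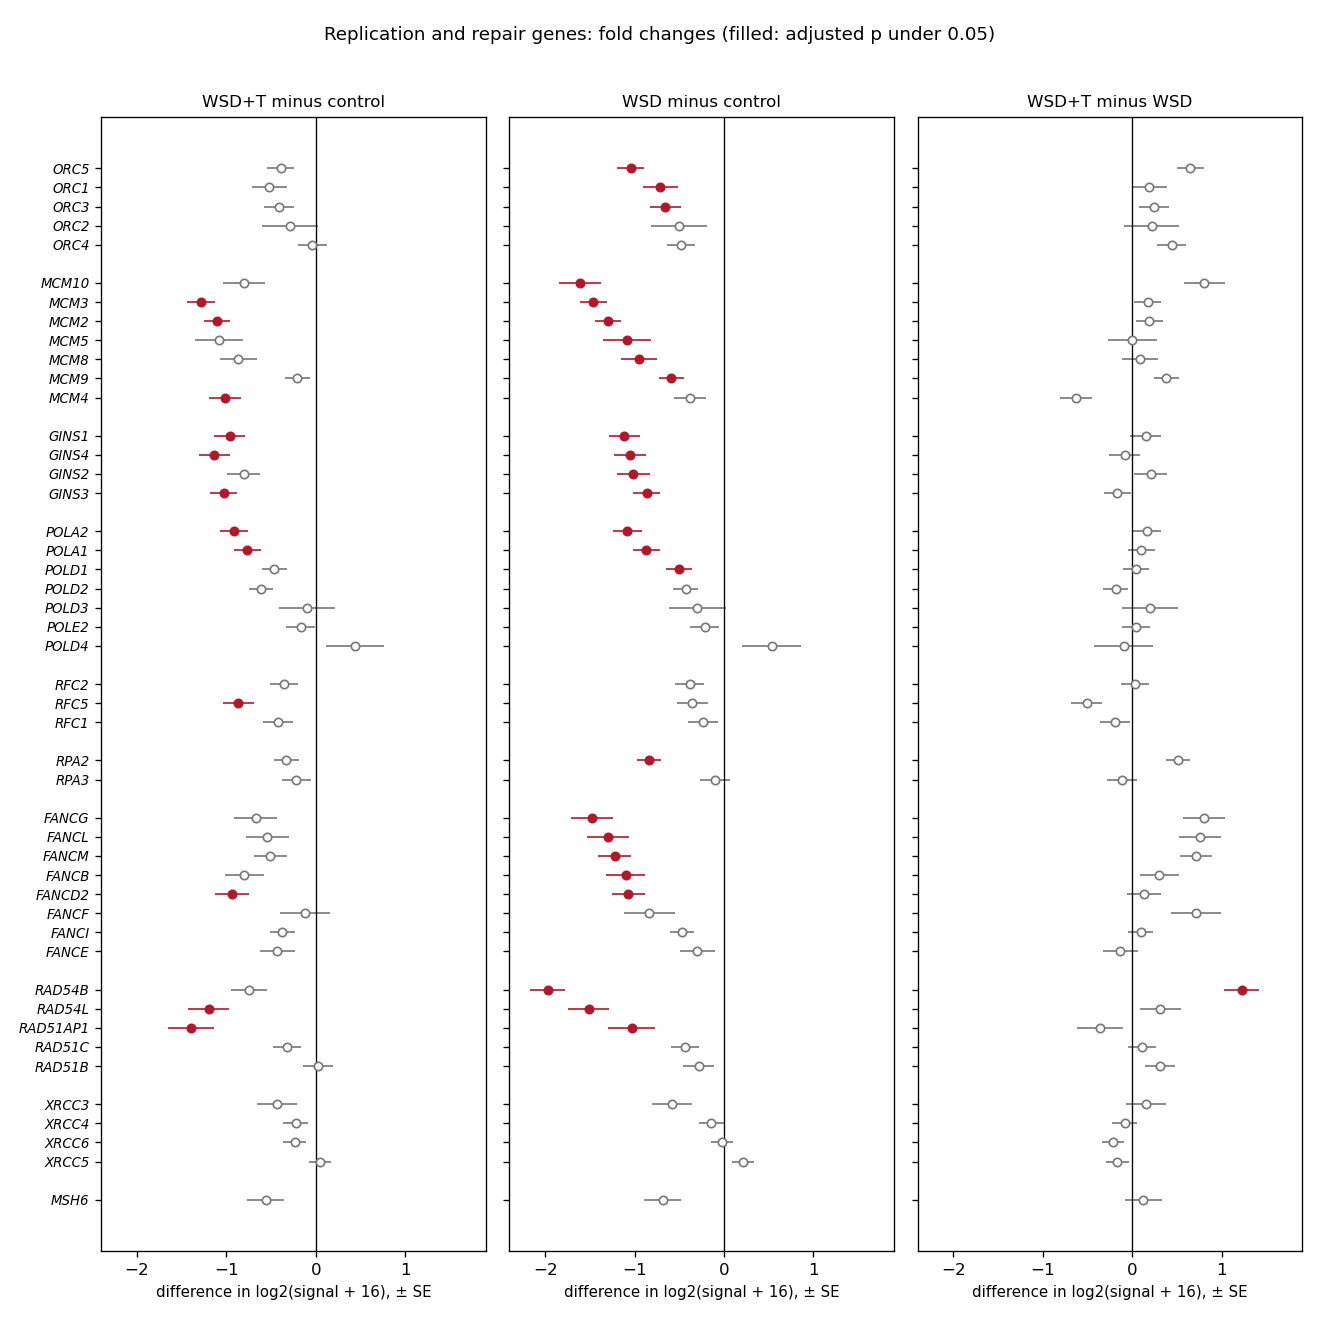
Fold changes of the 46 tested genes, as differences in log2(signal + 16) with their SE, in WSD+T minus control (left), WSD minus control (middle) and WSD+T minus WSD (right). Genes are grouped by family from the origin recognition complex at the top to MSH6 at the bottom, and filled red points passed an adjusted p of 0.05: 12 on the left, 25 in the middle and 1, RAD54B, on the right.

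Of 7 tested MCM genes 6 fell in WSD and 3 in WSD+T, and all 7 had negative fold changes in both. MCM3, a subunit of the MCM ring, gave signals of 568, 725 and 620.5 in WSD+T, 485, 578 and 625 in WSD, and 1602, 1638 and 1471 in control. Neither group on the Western-style diet overlapped control, and the fold changes were -1.28 in WSD+T (SE 0.15, adjusted p = 0.0142) and -1.46 in WSD (SE 0.15, adjusted p = 0.00296). The ring subunit MCM2 read 292, 349 and 353 in WSD+T, 254, 277 and 336 in WSD, and 742, 731 and 717 in control, so that every array on the diet was below every control array (fold changes -1.11 with adjusted p = 0.0161 in WSD+T, and -1.30 with adjusted p = 0.00315 in WSD). MCM5, also of the ring, had 270.1, 359.9 and 252 in WSD+T, 242, 216 and 463 in WSD, and 592, 616 and 695 in control. It fell in WSD (-1.08, SE 0.27, adjusted p = 0.0319) and had the same fold change of -1.08 without passing in WSD+T (adjusted p = 0.0843). WSD replicate 3 was its highest array on the diet alone.

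By its brightest probe set MCM4 separated the groups on the diet, which overlapped each other for MCM2, MCM3 and MCM5. Its signals were 309, 224 and 304 in WSD+T, 395, 395 and 532 in WSD, and 619, 560.2 and 548 in control. All 3 groups were separate, with WSD+T lowest. The gene fell in WSD+T (-1.02, SE 0.18, adjusted p = 0.0325), while its fold change in WSD was -0.38 (adjusted p = 0.181). The difference of WSD+T from WSD did not pass (-0.63, SE 0.18, adjusted p = 0.0898). Another probe set, with signals of 15.3 to 46.3, fell in both (-0.79, adjusted p = 0.0460 in WSD+T, and -0.61, adjusted p = 0.0363 in WSD). The remaining tested probe set passed in neither (-0.86, adjusted p = 0.0597 in WSD+T, and -0.56, adjusted p = 0.0826 in WSD). On both of these the groups on the diet overlapped each other.

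The other MCM genes act outside the ring. MCM10, which helps to activate the helicase, had 143, 164 and 156 in WSD+T, 83.2, 101 and 63.1 in WSD, and 264, 393 and 212 in control. It fell in WSD (-1.61, SE 0.23, adjusted p = 0.00580), and WSD+T, whose arrays lay between those of the other groups without overlap, had a fold change of -0.80 (adjusted p = 0.121). MCM8 and MCM9 form a separate helicase of recombination repair, and loss of either is known to impair ovarian function. MCM8 had 71.3, 85.1 and 47.9 in WSD+T, 71.3, 47.5 and 68.8 in WSD, and 141, 143 and 119.9 in control, and MCM9 had 309.8, 328 and 321 in WSD+T, 212, 249 and 269 in WSD, and 341, 365 and 412 in control. Both fell in WSD (-0.95, adjusted p = 0.0196 for MCM8 and -0.59, adjusted p = 0.0264 for MCM9), and neither passed in WSD+T (-0.86, adjusted p = 0.0730, and -0.21, adjusted p = 0.450).

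All 4 subunits of GINS, which joins the MCM ring in the active helicase, fell in WSD, with fold changes between -1.11 and -0.86. GINS1 had 1022, 1400.1 and 1239 in WSD+T, 1069, 923 and 1309 in WSD, and 2299, 2466 and 2369.5 in control (-0.96, adjusted p = 0.0354 in WSD+T, and -1.11, adjusted p = 0.00711 in WSD). For GINS2 the signals were 400.4, 534 and 435 in WSD+T, 416, 305 and 466 in WSD, and 872, 771 and 774 in control (-0.81, adjusted p = 0.0667 in WSD+T, and -1.01, adjusted p = 0.0114 in WSD). Each of these genes separated both groups on the diet from control, while the groups on the diet overlapped each other. GINS3 had 78.9, 96.5 and 86.3 in WSD+T, 89.7, 109 and 100.5 in WSD, and 165, 225 and 198 in control (-1.03, adjusted p = 0.0207 in WSD+T, and -0.86, adjusted p = 0.0104 in WSD). GINS4 had 82.4, 71.0 and 73.7 in WSD+T, 81.8, 90.6 and 72.1 in WSD, and 151, 239 and 175 in control (-1.13, adjusted p = 0.0249 in WSD+T, and -1.05, adjusted p = 0.00905 in WSD). With 3 of 4 genes called in WSD+T, GINS had the highest called share of any family of more than 1 tested gene in that comparison. The second tested probe set of GINS4 passed in neither (-0.58, adjusted p = 0.264 in WSD+T, and -0.61, adjusted p = 0.147 in WSD).

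**Figure D2:**
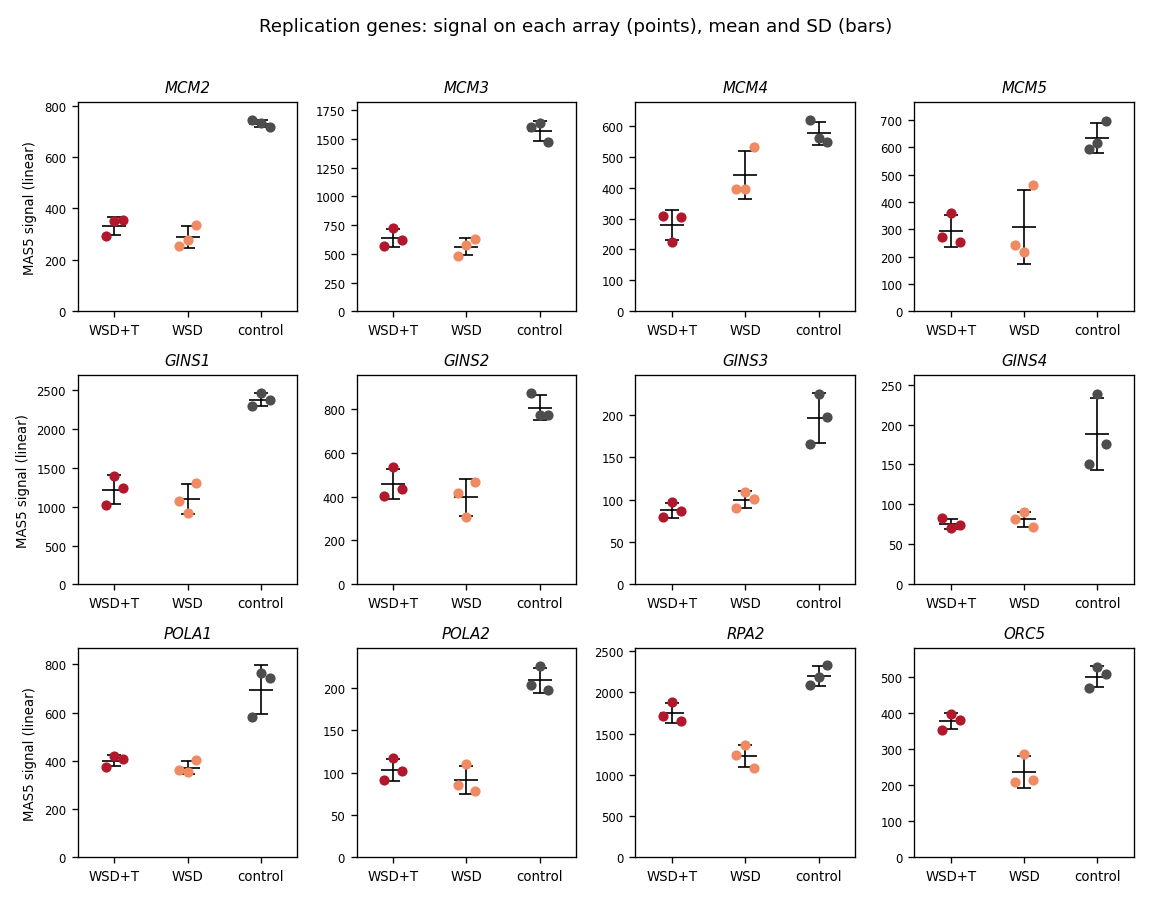
Linear MAS5 signal of 12 replication genes on each array, with WSD+T, WSD and control from left to right. Points are arrays and bars the mean and SD of n = 3. MCM2, MCM3 and the GINS genes have both groups on the Western-style diet well below control, whereas RPA2 and ORC5 have WSD+T between WSD and control.

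Among the polymerases the subunits of polymerase alpha, which with primase starts each new strand, were lower. POLA1, the catalytic subunit, had 376, 419 and 406 in WSD+T, 361, 352 and 403 in WSD, and 580.2, 765 and 742 in control (-0.76, adjusted p = 0.0421 in WSD+T, and -0.87, adjusted p = 0.00929 in WSD). POLA2, the regulatory subunit, had 91.1, 117 and 102 in WSD+T, 85.1, 110.0 and 78.3 in WSD, and 203, 226 and 198 in control (-0.92, adjusted p = 0.0319 in WSD+T, and -1.08, adjusted p = 0.00595 in WSD). Both genes kept every array on the diet below every control array. Polymerase delta, which copies the lagging strand, gave smaller values. Its catalytic subunit POLD1 fell in WSD (-0.50, adjusted p = 0.0476) on signals of 25.8 to 34.3, against 42.8 to 55.3 in control. The accessory subunits POLD2 (-0.61 in WSD+T and -0.43 in WSD) and POLD3 (-0.10 in WSD+T and -0.30 in WSD) did not pass.

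POLD4, the smallest subunit of polymerase delta, was the only gene with a positive fold change above 0.3 against control. It had 294, 341 and 291 in WSD+T, 391, 490.1 and 186 in WSD, and 262, 165 and 256 in control. WSD+T lay above control, but WSD overlapped it through replicate 3, and neither fold change passed (0.44, adjusted p = 0.506 in WSD+T, and 0.53, adjusted p = 0.299 in WSD). Without WSD replicate 3 it rose in WSD (0.92, adjusted p = 0.0210). On the second probe set of POLD4 both groups on the diet overlapped control, and neither fold change passed (0.15 in WSD+T and 0.39 in WSD). POLE2, an accessory subunit of polymerase epsilon, had 2096, 2409 and 2169.8 in WSD+T, 2323, 1760.2 and 2445 in WSD, and 2510.5, 2719 and 2290.3 in control, with overlapping groups and no call (-0.17 in WSD+T and -0.21 in WSD). Its second probe set had 401, 327 and 366 in WSD+T, 336, 334 and 350.0 in WSD, and 493, 738 and 542 in control, and fell in WSD (-0.75, adjusted p = 0.0232).

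The remaining replication families were less uniform. Of 5 ORC genes 3 fell in WSD, and all 5 had negative fold changes in both comparisons with control. ORC5 had 353, 397 and 380.4 in WSD+T, 209, 287 and 214 in WSD, and 469, 526 and 507 in control. The 3 groups were separate with WSD+T in the middle, and the fold changes were -0.39 in WSD+T (adjusted p = 0.214) and -1.04 in WSD (SE 0.15, adjusted p = 0.00595). ORC1, the subunit that is most tied to the cell cycle, had 115, 140.1 and 134 in WSD+T, 156, 89.9 and 96.6 in WSD, and 193, 202 and 182 in control (-0.52, adjusted p = 0.203 in WSD+T, and -0.71, adjusted p = 0.0427 in WSD). ORC3 fell as well in WSD (-0.66, adjusted p = 0.0363), whereas ORC2 (-0.50) and ORC4 (-0.48) did not pass.

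Replication protein A coats the exposed strand, and RPA2 and RPA3 are subunits of it. RPA2 had 1716, 1882 and 1654 in WSD+T, 1243, 1358 and 1082 in WSD, and 2090.3, 2187 and 2332 in control. Again WSD+T lay between the other groups without overlap (-0.33, adjusted p = 0.239 in WSD+T, and -0.84, SE 0.14, adjusted p = 0.00814 in WSD). RPA3 had 1719, 2134 and 1789 in WSD+T, 2040.2, 1729 and 2368 in WSD, and 2179, 1956 and 2421 in control, and its groups overlapped (-0.22, adjusted p = 0.520 in WSD+T, and -0.10, adjusted p = 0.714 in WSD). The clamp loader RFC places the sliding clamp PCNA on DNA. RFC5, one of its small subunits, had 195, 201 and 167 in WSD+T, 248, 330.4 and 248 in WSD, and 296, 416 and 358 in control. It fell in WSD+T (-0.86, adjusted p = 0.0485) and had -0.35 in WSD (adjusted p = 0.209), while its second probe set passed in WSD alone (-0.69, adjusted p = 0.138 in WSD+T, and -0.76, adjusted p = 0.0475 in WSD). RFC1 and RFC2 passed in neither comparison.

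The repair families ran from the greatest decrease of all members to no call. Homologous recombination repairs a break by copying the sister strand, and RAD54L, RAD54B and RAD51AP1 are accessory factors of it. RAD54B had 200.0, 219 and 243 in WSD+T, 93.4, 105 and 61.6 in WSD, and 362, 447 and 338 in control. The 3 groups were separate, with WSD lowest. Its fold change of -1.97 in WSD (SE 0.20, adjusted p = 0.00296) was the greatest decrease among the 46 genes, and in WSD+T it was -0.75 without passing (adjusted p = 0.0956). RAD54L had 70.1, 109 and 72.6 in WSD+T, 73.6, 42.8 and 77.8 in WSD, and 192, 247 and 194 in control, with the groups on the diet overlapping each other and not control (-1.20, adjusted p = 0.0420 in WSD+T, and -1.51, adjusted p = 0.00676 in WSD). RAD51AP1 had 240.2, 397 and 273 in WSD+T, 352, 308 and 528 in WSD, and 904, 905 and 642 in control. It too stayed below control on every array on the diet (-1.40, adjusted p = 0.0383 in WSD+T, and -1.03, adjusted p = 0.0322 in WSD). The recombination genes RAD51C (-0.32 in WSD+T and -0.44 in WSD), XRCC3 (-0.43 in WSD+T and -0.58 in WSD) and RAD51B did not pass. RAD51B had 223, 228 and 283 in WSD+T, 210.3, 212 and 162 in WSD, and 209.8, 240.4 and 271 in control, and was flat in WSD+T (0.02, SE 0.17).

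The Fanconi anaemia genes repair crosslinks between the strands: a core complex with the ubiquitin ligase FANCL marks the pair FANCD2 and FANCI. Of 8 tested FANC genes 5 fell in WSD and 1 in WSD+T, with medians of -0.52 in WSD+T and -1.09 in WSD. FANCM, the motor that brings the core complex to DNA, had 129, 125 and 153 in WSD+T, 76.1, 93.6 and 61.6 in WSD, and 224, 217 and 162 in control (-0.51, adjusted p = 0.188 in WSD+T, and -1.22, adjusted p = 0.00634 in WSD). Its next brightest probe set fell in WSD as well (-1.18, adjusted p = 0.00395). FANCG, a core subunit, had 119, 100.2 and 101 in WSD+T, 58.9, 76.7 and 34.0 in WSD, and 159, 222 and 164 in control (-0.67, adjusted p = 0.176 in WSD+T, and -1.48, adjusted p = 0.00758 in WSD). FANCM and FANCG both held WSD+T between WSD and control without overlap. FANCL had 251, 469 and 281 in WSD+T, 178, 153 and 227 in WSD, and 505, 455 and 467 in control, where WSD+T replicate 2 reached the control range (-0.54, adjusted p = 0.259 in WSD+T, and -1.30, adjusted p = 0.0114 in WSD).

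FANCD2 had 93.0, 79.8 and 96.1 in WSD+T, 94.4, 83.7 and 64.7 in WSD, and 185, 230.2 and 150.4 in control. It was the FANC gene called in both comparisons (-0.94, adjusted p = 0.0460 in WSD+T, and -1.07, adjusted p = 0.0101 in WSD). Its partner FANCI had -0.37 in WSD+T (adjusted p = 0.198) and -0.47 in WSD (adjusted p = 0.0547). A second probe set of FANCI fell in WSD (-0.61, adjusted p = 0.0418) and did not pass in WSD+T (-0.79, adjusted p = 0.0517). FANCB, a core subunit, had 39.2, 28.5 and 31.0 in WSD+T, 37.1, 14.7 and 21.8 in WSD, and 71.0, 79.3 and 57.1 in control (-0.80, adjusted p = 0.103 in WSD+T, and -1.10, adjusted p = 0.0145 in WSD). Every array on the diet was below every control array for FANCD2, FANCI and FANCB. FANCE (-0.43 in WSD+T and -0.30 in WSD) and FANCF (-0.12 in WSD+T and -0.83 in WSD) did not pass.

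End joining seals breaks without a template, and its genes among these families, XRCC4, XRCC5 and XRCC6, gave no call. The Ku subunits XRCC5 and XRCC6 hold broken ends, and XRCC4 works with the ligase that closes them. XRCC5 had 1818, 1932 and 1799 in WSD+T, 1957, 2222 and 2054 in WSD, and 1893, 1853 and 1632 in control, so that WSD lay just above control (0.05, SE 0.13 in WSD+T, and 0.21, SE 0.13, adjusted p = 0.287 in WSD). On the second probe set of XRCC5 WSD and control overlapped. XRCC6 had 1862, 1799 and 1795 in WSD+T, 2054, 2002 and 2294 in WSD, and 2129.9, 2011 and 2310.1 in control (-0.24, SE 0.13 in WSD+T, and -0.02, SE 0.13, adjusted p = 0.921 in WSD). The WSD+T arrays of XRCC6 lay below all WSD and control arrays. XRCC4 had fold changes of -0.22 in WSD+T and -0.14 in WSD, both with an SE of 0.14, and its WSD+T arrays lay below control. The median of the 4 XRCC genes was -0.23 in WSD+T and -0.08 in WSD. MSH6, which recognises mismatches, had 2120.2, 2319.6 and 2232 in WSD+T, 2171, 1458 and 2662 in WSD, and 3244, 3074 and 3559.7 in control, with no overlap between control and either diet group but no call (-0.56, adjusted p = 0.202 in WSD+T, and -0.69, adjusted p = 0.0612 in WSD). Its dimmer probe set, with 250.0, 99.4 and 302 in WSD against 627, 476 and 608 in control, did fall in WSD (-1.44, adjusted p = 0.0253).

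**Figure D3:**
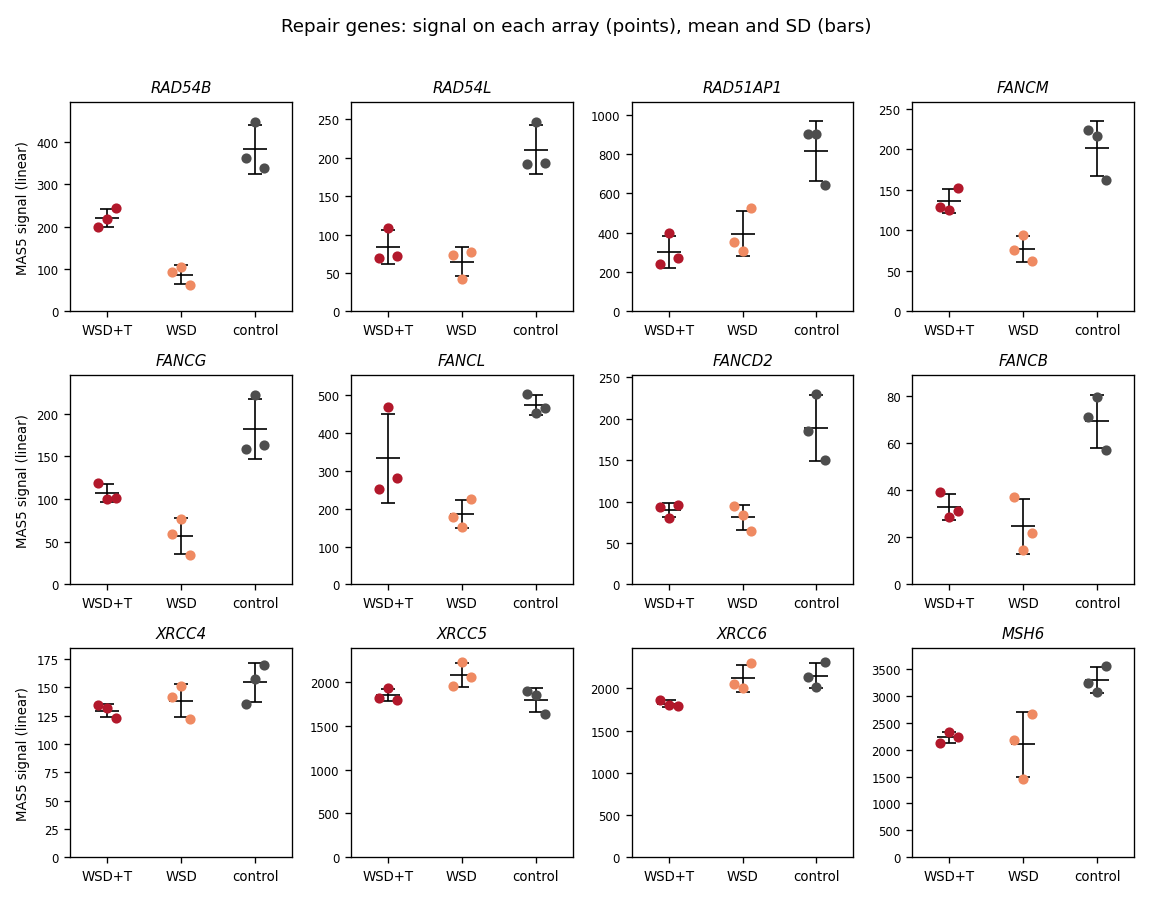
Linear MAS5 signal of 12 repair genes on each array, with WSD+T, WSD and control from left to right. Points are arrays and bars the mean and SD of n = 3. RAD54B, FANCM and FANCG have WSD lowest and WSD+T in the middle. The groups of XRCC4, XRCC5 and XRCC6 differ less, although WSD+T of XRCC4 and XRCC6 lies below control.

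Between the groups on the diet with and without androgen, calls among these genes were about as frequent as over all tested genes. In WSD+T against WSD 1 of the 46 genes rose, none fell and 45 did not pass, where 2.06% of all tested genes were called higher and 0.79% lower. The gene was RAD54B (1.22, SE 0.20, adjusted p = 0.0279), whose 3 WSD+T arrays at 200.0 to 243 lay above the 3 WSD arrays at 61.6 to 105. For 10 of the 46 genes WSD+T lay wholly above WSD, as it did for 18.2% of all tested genes, and for 4 wholly below, as for 10.6%. At an unadjusted p under 0.05 in limma 10 of the 46 were higher and 2 lower, against 1434 and 635 of all 10002 tested genes. By family the medians of the difference were 0.51 for the FANC genes, 0.24 for ORC, 0.18 for MCM, 0.03 for GINS and -0.12 for XRCC, beside 0.09 over all tested genes. Median centring of the arrays moved that median over all genes to -0.05, so differences of about 0.14 depend on how arrays are scaled. ORC5 (0.65, adjusted p = 0.0582), RPA2 (0.51, adjusted p = 0.0791), FANCM (0.71, adjusted p = 0.0715), FANCG (0.80, adjusted p = 0.0981) and MCM10 (0.81, adjusted p = 0.0942) did not pass. RAD54B lost its call without any single WSD+T array or without WSD replicate 1 (adjusted p up to 0.137, with fold changes from 1.03 to 1.36 over the 9 fits that left out 1 array), and in a fit of the 6 arrays of these groups alone.

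**Figure D4:**
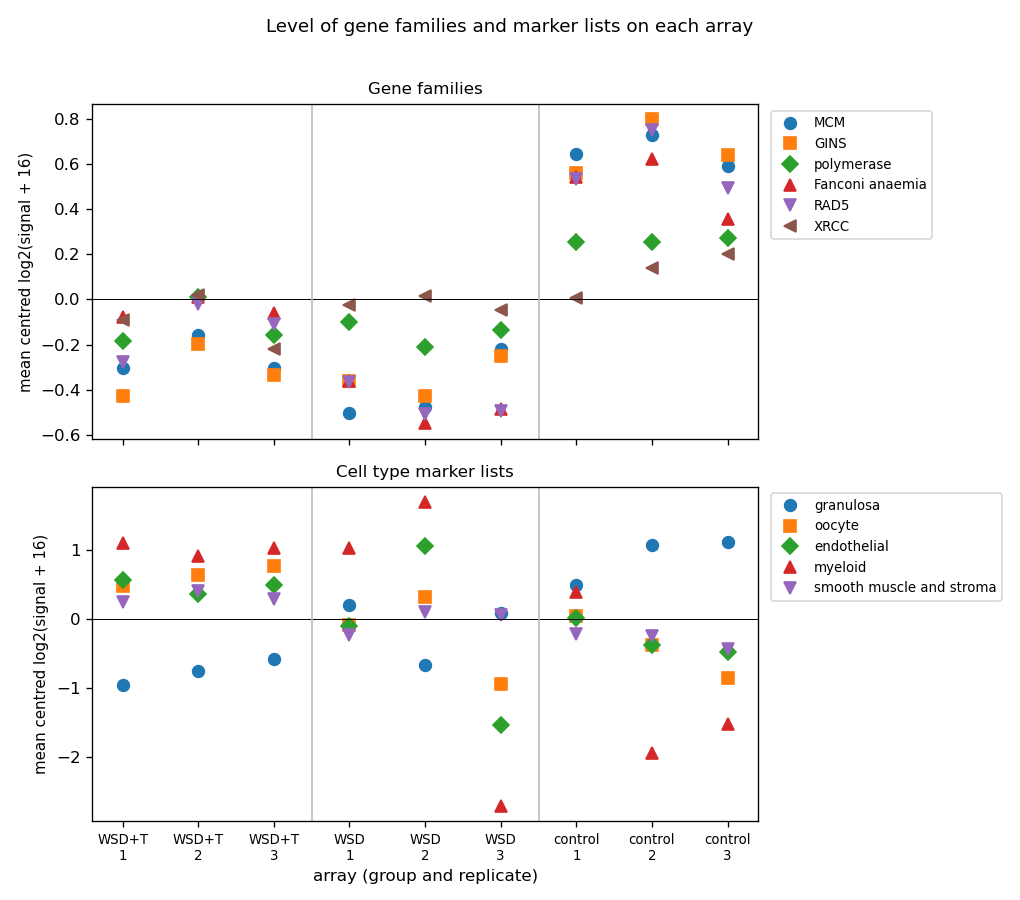
Level of 6 gene families (top) and of 5 cell type marker lists (bottom) on each of the 9 arrays, as the mean of their genes' log2(signal + 16), each gene centred on its mean over the arrays. MCM, GINS, Fanconi anaemia and RAD5 genes are high on all 3 control arrays, whereas the myeloid list is high on the 3 WSD+T arrays and on WSD replicates 1 and 2 and lowest on WSD replicate 3.

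Other genes of these pathways came from lists chosen with earlier results of these data known. Beside their counts, 10.7% of all tested genes were lower in WSD and 1.73% in WSD+T, and 2.06% were higher in WSD+T than in WSD. A list of 34 further genes of replication start and fork had 27 tested, of which 18 fell in WSD and none rose (median -0.87), and 9 fell in WSD+T and none rose (median -0.66). CDC6, which loads the MCM ring, had 249, 232 and 187 in WSD+T, 155, 195 and 171 in WSD, and 521, 619 and 479 in control. CDC45, which joins MCM and GINS in the active helicase, had 110.4, 129 and 144 in WSD+T, 118, 121 and 115 in WSD, and 301, 284 and 306 in control. Both were called in WSD+T (-1.22, adjusted p = 0.0171, and -1.13, adjusted p = 0.0142) and in WSD (-1.55 and -1.22, both with adjusted p = 0.00296). The fork protection factor TIMELESS (-1.52 in WSD+T and -1.55 in WSD) and DTL (-1.04 in WSD+T and -1.45 in WSD), which directs the destruction of licensing factors, fell in both. TICRR, a factor that starts origins, fell in WSD (-1.46, adjusted p = 0.00323) and was the 1 gene of that list higher in WSD+T than in WSD (0.87, adjusted p = 0.0373), a call lost under median centring and cyclic loess and without any single WSD+T or control array or WSD replicate 1. The count lower in WSD+T was 0 without WSD+T replicate 1 or 3, 5 without WSD+T replicate 2, and 3, 2 and 3 without control replicates 1, 2 and 3.

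A list of 78 further repair genes had 52 tested, of which 22 fell in WSD (median -0.61) and 5 in WSD+T (median -0.28), and none rose. Of all tested genes 10.7% were lower in WSD and 1.73% in WSD+T, and 2.06% were higher in WSD+T than in WSD. In WSD+T 47 of the 52 did not pass and 11 had positive fold changes. CHEK1, the checkpoint kinase of stalled forks, had 202, 212 and 259 in WSD+T, 136, 126 and 117 in WSD, and 574, 489 and 566 in control (-1.22, adjusted p = 0.0142 in WSD+T, and -1.97, adjusted p = 0.00278 in WSD). EME1, part of a nuclease of recombination (-1.57 in WSD+T and -1.73 in WSD), and UBE2T, the ubiquitin-conjugating partner of FANCL (-0.97 in WSD+T and -1.45 in WSD), also fell in both. In WSD+T against WSD 5 of the 52 rose: CHEK1 (0.75), PALB2 (1.05), which brings BRCA2 to BRCA1, RAD17 (0.84), which loads a checkpoint clamp, the mismatch repair gene PMS2 (0.82) and the lesion-bypass polymerase POLK (1.67, adjusted p = 0.0166). POLK had 247, 193 and 193 in WSD+T, 79.3, 47.7 and 42.3 in WSD, and 90.8, 116 and 103 in control, so that WSD+T lay above both other groups, and against control its fold change was 0.92 without passing in WSD+T (adjusted p = 0.0640). The count was 3 under quantile normalization, 1 under median centring, 3 under cyclic loess, 0 without any single WSD+T array, 1 without WSD replicate 1 and 2 without control replicate 1. Against control, without control replicate 2 the count lower in WSD was 9, and without WSD+T replicate 1 or 3 the count lower in WSD+T was 0. The number of dividing cells was not measured, and of 15 proliferation marks, 9 of them tested, 6 fell in WSD+T and 7 in WSD, among them MKI67 (-2.25, adjusted p = 0.0139 in WSD+T, and -2.20, adjusted p = 0.00296 in WSD). The count of these marks in WSD+T was 0 without WSD+T replicate 1 or 3, with the replicate block and with those arrays averaged, 2 without control replicate 2 or 3 and 4 without control replicate 1. In WSD it was 2 without control replicate 2, with only the groups compared or with array weights, and 3 with the block.

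The calls in WSD were steadier than those in WSD+T when single arrays were left out. Leaving out 1 array at a time, 17 of the 25 genes passed in all 9 fits: MCM2, MCM3, MCM10, the 4 GINS genes, POLA1, POLA2, ORC5, RPA2, RAD54B, RAD54L, FANCM, FANCG, FANCL and FANCD2. FANCB missed only without control replicate 2 (adjusted p = 0.0524), MCM8 without control replicate 1 or 2 (up to 0.0638), RAD51AP1 (up to 0.0993) and MCM9 (up to 0.0770) in 5 fits each, MCM5 in 7 (up to 0.0946), ORC1 (up to 0.115) and ORC3 (up to 0.101) in 8 and POLD1 in all 9. Without control replicate 2 the count in WSD was 17. In WSD+T none of the 12 passed in all fits. The count was 0 without WSD+T replicate 1 or 3, 2 without WSD+T replicate 2, 6 without WSD replicate 1, and 5, 2 and 1 without control replicates 1, 2 and 3. MCM3 passed in 7 of the 9 fits and MCM2 in 6. The counts also rest on the spread that the groups share: with only the 6 arrays of the groups compared, 21 genes were lower in WSD+T and 11 in WSD. Those fits kept all 12 calls in WSD+T and 11 of the 25 in WSD.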

How the data were processed

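Per the labels, RNA was amplified (NuGEN 3' IVT), labelled with biotin and hybridised to Affymetrix arrays of 1 colour. The authors deposited linear signal intensity values per probe set, made with MAS5 per the submitters' processing notes; on all 9 arrays the mean without the outer 2% was 200.01. Genome build and detection calls were not given in the sources used here, and no coordinates are printed. Symbols came from the array's annotation, and for 86 of the 87 probe sets the Entrez ID carried the same symbol in a RefSeq table of another assembly. The genes and lists were chosen with earlier results of these data known.

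A pseudocount of 16 was added before log2. Of 52865 probe sets 99 were controls, and 26383 reached the filter and entered 1 fit with a mean per group (lmFit and eBayes of limma 3.58.1, R 4.3.3, two-sided contrasts, Benjamini-Hochberg over all tested probe sets, threshold 0.05). Precision is limited by the number of arrays. The pipeline was tested on simulated data in which all groups had 1 common spread per probe set. That test does not cover the unequal spreads of the groups here. The replicates are labelled as biological, and no label names a batch; a code of unstated meaning in the sample descriptions differs on control replicate 2 alone. Genes were named by a rule: core replication genes, repair genes called against control, the greatest increases, and genes called in WSD+T against WSD. Values of other members were chosen after they were seen. Alternatives were pseudocounts of 1 and 64, other filters and normalizations, 2-group fits, array weights, averaged probe sets or arrays, a replicate block and leaving out each array. Figures used matplotlib 3.10.9.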

Additional observations from a re-analysis of the deposited data

Results flagged for a closer look

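For 3 probe sets the effects of WSD+T and WSD against control differed by the direct test of WSD+T against WSD in limma. RAD54B differed by 1.22 (SE 0.20, adjusted p = 0.0279). A second probe set of FANCM differed by 0.70 (SE 0.15, adjusted p = 0.0472), with signals of 98.0, 89.4 and 98.8 in WSD+T and 58.3, 56.5 and 43.3 in WSD, while its brighter probe set had 0.71 without passing (adjusted p = 0.0715). A second probe set of RAD51C differed by -0.72 (SE 0.15, adjusted p = 0.0419), with 117, 107 and 124 in WSD+T and 209, 169 and 229 in WSD. Its brighter probe set had 0.11 (SE 0.16, adjusted p = 0.744), so the difference of RAD51C rests on 1 of its probe sets. Leaving out 1 array at a time, RAD54B passed in 5 of 9 fits, the FANCM probe set only without WSD replicate 2 (adjusted p = 0.0428, up to 0.186 in the others) and the RAD51C probe set only without WSD replicate 2 or 3 (0.0240 and 0.0491, up to 0.172 in the others). None of the 3 passed with WSD+T replicates 1 and 3 averaged (0.116 to 0.168). The cause of these differences was not tested.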

How the results depend on the processing

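Over 21 alternatives none of the 25 genes called in WSD against control, the 12 called in WSD+T against control or RAD54B in WSD+T against WSD changed direction. The count lower in WSD, 25, was 11 with only the 2 groups compared and within 1.5 times otherwise (17 to 27 leaving out 1 array, 19 with a replicate block, 17 with array weights per group). None was higher except 1, POLD4, without WSD replicate 3 (0 to 1 leaving out 1 array). The count lower in WSD+T, 12, was 7 with a pseudocount of 1 and 7 under median centring, 21 with only the 2 groups compared, 23 with array weights per group, 0 with the replicate block, 0 with WSD+T replicates 1 and 3 averaged, and 0 to 18 leaving out 1 array. The count higher in WSD+T against WSD, 1, was 2 with a pseudocount of 64, 2 with the stricter filter, 2 with the mean of a gene's probe sets, 0 with only the 2 groups compared, 0 with the replicate block, 0 with WSD+T replicates 1 and 3 averaged, and 0 to 4 leaving out 1 array. Beside these counts of 0, the counts at an unadjusted p under 0.05 in limma were 25 lower in WSD+T with the replicate block and 23 with the arrays averaged. The cause was not tested. Same-numbered arrays of different groups had residual correlations from -0.30 to 0.19, so the numbers were not taken as pairs. Among all tested genes 1071 were lower and 474 higher in WSD, but under cyclic loess 756 and 607, and under median centring 527 and 548; for WSD+T against WSD 79 were lower and 206 higher, but 91 and 125 under quantile normalization, under cyclic loess 117 and 115, and under median centring 53 and 47. In WSD+T against control 173 were lower and 62 higher, 588 and 754 with only the 2 groups compared and 656 and 694 with array weights. Median centring moved the median of all genes in WSD from -0.08 to 0.05, a shift that by construction is common to all genes, and left 19 of the 46 called lower. Genes with signals near 21.2, such as POLD1, FANCB and XRCC3, are limited by signal over background.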

Other observations

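Regulators of entry into S phase came from a list of 26 E2F, cyclin and inhibitor genes, of which 24 were tested. In WSD 10 were lower and 2 higher, with a median of -0.41, and 1 was lower in WSD+T, with a median of -0.32. Of all tested genes 10.7% were lower and 4.74% higher in WSD, and 1.73% were lower in WSD+T. In WSD+T against WSD 0.79% of all tested genes were lower. The transcription factor E2F2 had 137, 173 and 155 in WSD+T, 124, 80.9 and 257 in WSD, and 551, 607 and 389 in control (-1.62, adjusted p = 0.0542 in WSD+T, and -1.76, adjusted p = 0.0148 in WSD). E2F1 (-1.22), E2F7 (-1.03) and the S phase cyclin CCNE2 (-1.61) also fell in WSD, and E2F7 was the 1 gene called in WSD+T (-0.96, adjusted p = 0.0386). The higher genes in WSD were the cell cycle inhibitor CDKN1A (1.61) and TFDP1, the dimer partner of E2F proteins. TFDP1 had 122, 175 and 157 in WSD+T, 262, 347 and 330.5 in WSD, and 156, 199 and 144 in control, so that WSD lay above both other groups (0.85, adjusted p = 0.0208 against control). It was the 1 gene of the list that differed between WSD+T and WSD (-0.98, adjusted p = 0.0373), a call lost without any single WSD+T array, WSD replicate 1 or control replicate 1 or 3. The count higher in WSD was 1 without control replicate 1 or 3. The count lower in WSD was 4 without control replicate 2 and 6 without control replicate 3, and the E2F7 call in WSD+T was lost without any single WSD+T or control array.

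Enzymes of nucleotide supply had 11 of 20 genes tested. Of all tested genes 10.7% were lower in WSD and 1.73% in WSD+T, and 2.06% were higher in WSD+T than in WSD. In WSD 4 fell and none rose (median -0.30), among them the thymidylate synthase TYMS, and in WSD+T 2 fell and none rose (median -0.30). TYMS had 663, 837 and 726 in WSD+T, 904, 883 and 885 in WSD, and 1207, 1402 and 1354 in control (-0.82, adjusted p = 0.0280 in WSD+T, and -0.56, adjusted p = 0.0296 in WSD). The purine synthesis enzyme GART had 351, 411 and 387 in WSD+T, 221, 218 and 183 in WSD, and 493, 591 and 425 in control, and was the 1 gene of this list higher in WSD+T than in WSD (0.84, adjusted p = 0.0369), a call lost under median centring and without any single WSD+T array, WSD replicate 1 or control replicate 1. The counts of this list ran from 2 to 3 in WSD and from 0 to 3 in WSD+T when 1 array was left out.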
